A study of Mus musculus with 4 samples.

Results

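The genes of the proteasome were examined in 4 mouse RNA-seq libraries. They were taken by name, as the protein-coding rows whose symbol starts with Psma, Psmb, Psmc, Psmd, Psme, Psmf or Psmg, and the interferon-inducible core subunits Psmb8 and Psmb9 were left out. This gave 48 of the 24706 genes in the files, or of the 15996 that are protein-coding. By known role they fall into 8 genes for the alpha rings of the core, 9 for its beta rings, 9 for the base and 8 for the lid of the cap, 5 activators, 8 inhibitor and assembly factors, and Psmc3ip, a meiotic recombination factor that shares the name but is no proteasome subunit.

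The study deleted Pdcd1, the gene for the immune receptor PD-1, in mouse myeloid cells and sequenced 2 wt and 2 cko libraries, all labelled as myeloid cells. By the study's text, cko stands for mice called PD-1f/f; LysM-Cre. In them, LoxP sites inserted by CRISPR-Cas9 flank an exon of Pdcd1 and Cre is expressed from the LysM locus, which is active in myeloid cells. The text names the controls both as PD-1f/f and as wild-type mice. It describes the RNA both as that of CD11b+ cells sorted from the liver and as that of whole fetal liver, and gives the age both as P3 and as P2. Whether the libraries of a group came from separate mice is not stated. Xist and Y-linked transcripts, given below, differ between the wt libraries, which therefore do not come from the same mouse. In cko the spread between the libraries may be technical.

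The proteasome is the main protease for ubiquitin-tagged proteins in the cytosol and nucleus. Its core is a barrel of alpha rings, which gate the entrance, around beta rings, which carry the cleavage sites. The cap sits on the barrel, and its lid removes ubiquitin while the ATPases of its base unfold the protein and thread it into the core. Activators can take the place of the cap, and assembly chaperones join the subunits. Haematopoietic cells also make a variant core with Psmb8, Psmb9 and Psmb10 in place of the constitutive catalytic subunits, which favours peptides for antigen presentation.

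Each library held between 17691504 and 22212407 counted reads, and expression was given as FPKM, in which read numbers are divided by the length of the gene and the size of the library. Pdcd1 was at 28.5 and 34.7 FPKM in the wt libraries and 17.1 and 21.4 FPKM in the cko libraries. Its reads were lower in cko and remained in both cko libraries. Lyz2, which lies at the Cre locus, was at 31300 and 32100 FPKM in wt and at 10400 and 8130 FPKM in cko. The defining myeloid gene Itgam (CD11b) was present in all 4 libraries. Summed FPKM of 7 erythroid markers was 3680 and 2310 in wt and 1400 and 1490 in cko, and that of 8 hepatocyte markers 60.4 and 102 in wt and 43.0 and 52.6 in cko. The 12 myeloid markers, in 13 rows, summed to 117000 and 94400 in wt and to 54100 and 48200 in cko. The abundant Lyz2 contributes to these sums, but their fall was larger than that of Lyz2 alone. Gene by gene the myeloid markers were mixed, with a median log2 fold change of 0.01, 6 of 12 tested rows above 0, and 2 higher and 4 lower at an unadjusted p under 0.05. None of the 7 tested erythroid markers was above 0, and 5 were lower by that measure. Lymphoid markers summed to 31.0 to 40.2 FPKM, megakaryocyte markers to 9.65 to 24.4 FPKM and endothelial and stromal markers to 10.5 to 18.0 FPKM, and of all these markers Cd3e alone was at 0 in a library. The part of these shifts in the results below was not tested, and in bulk samples a smaller number of cells and less RNA per cell cannot be told apart. Xist, the RNA of the inactive X chromosome, was at 4.91 FPKM in wt replicate 1, 0.0119 FPKM in wt replicate 2 and 6.67 and 7.98 FPKM in cko, whereas the Y-linked gene Ddx3y was at 24.9 FPKM in wt replicate 2 and at most at 0.00866 FPKM in the other libraries. Sex thus differed within the wt group.

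In all, 46 members had a mean of at least 1 FPKM and were tested. Psmb11, a core subunit of thymic epithelium, was listed at 0 in 3 libraries and at 0.0125 FPKM in wt replicate 2. Psma8, an alpha subunit of male germ cells, was listed at 0 in wt replicate 1, at 0.785 FPKM in wt replicate 2 and at 0.788 and 1.17 FPKM in cko. Psmb11 was thus at or near 0 in every library, while Psma8 was low and listed at 0 in 1 library. The 46 members tested were well expressed, with a median at percentile 83.1 of the mean FPKM of all genes tested, and 42 of them lay above the middle of that range. For the 41 members whose reads could be worked out from annotated gene lengths, the median was between 1067 and 1244 reads per library, which gives a counting error (SD) of 2.84% to 3.06%. The fewest were 70 reads, for Psmg4 and Psmc3ip. Replicates of the members lay closer together in wt than in cko, with a median absolute log2 difference of 0.12 in wt and 0.21 in cko, against 0.22 and 0.23 for all genes tested.

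**Figure D1:**
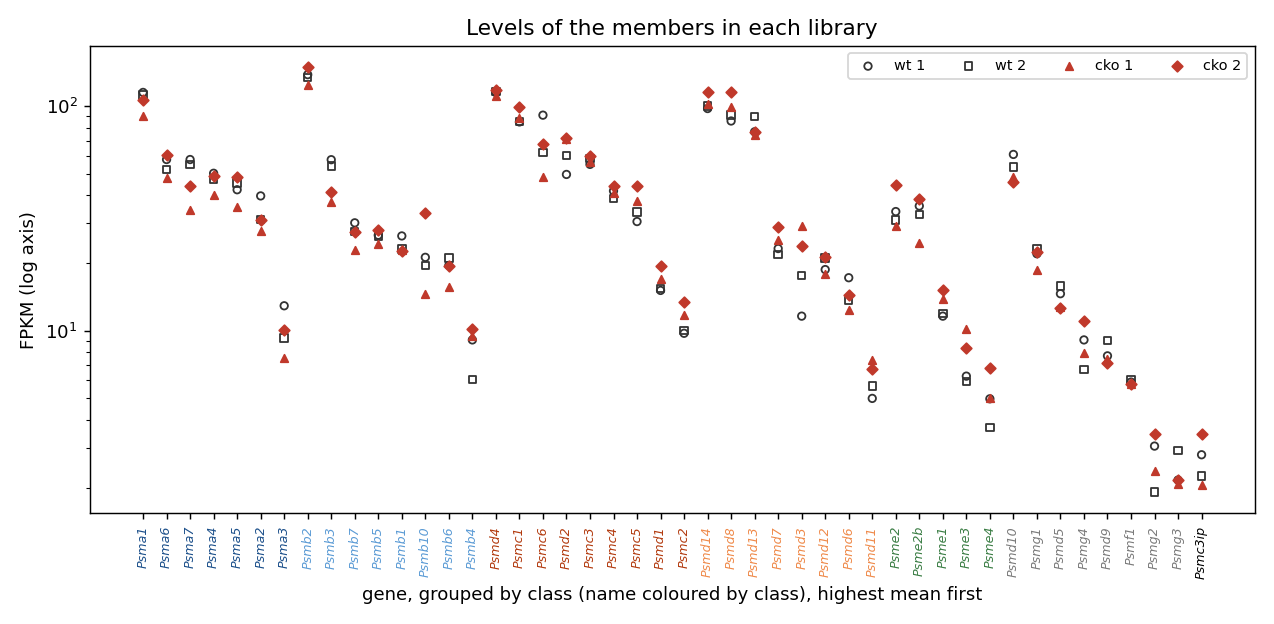
FPKM of the 46 members tested (log axis) in each library, grouped by class and ordered by mean level. Open symbols are the wt libraries and filled symbols the cko libraries. Psmb2 is the highest member with 124 to 149 FPKM, and Psmg2, Psmg3 and Psmc3ip lie between 1.91 and 3.48 FPKM.

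The libraries were compared with limma on log2(FPKM + 1) over 10779 genes, and every log2 fold change below is cko against wt on that scale, which understates the change of genes at low FPKM. The median log2 fold change of all genes tested was 0.09. It moved to 0.00 with median-of-ratios scaling, -0.02 with quantile normalization, 0.27 when erythroid and hepatocyte genes were removed and the rest rescaled, and 0.28 when protein-coding genes alone were kept and rescaled, so that the members are best read relative to it. The threshold of the study's methods, an adjusted p under 0.05 together with an absolute log2 fold change of 1 or more, was passed by 0 genes in the whole table by limma, a background of 0.0%, and by 0 members. The voom method of limma on reads passed 2 genes, neither of them a member. For its volcano plot the study's text gives another threshold, p under 0.01 with an absolute log2 fold change over 1. No member passed that in the main fit, where their log2 fold changes ran from -0.53 to 0.84. How many genes of the whole table passed it was not counted. At an unadjusted p under 0.05, 2 members were higher in cko, Psmd3 and Psme3, and 2 were lower, Psmb3 and Psma7. Over all genes tested 11.4% were higher and 4.95% lower by this measure, 16.4% in all, so the members called were no more frequent than other genes. This split depended on the scaling, with 12 members higher and 0 lower when erythroid and hepatocyte genes were removed or protein-coding genes alone were kept, 1 higher and 3 lower with median-of-ratios scaling, and 1 higher and 2 lower with quantile normalization. The share of all genes called at this p is given for the main fit alone. The counts under other scalings therefore cannot be set beside those of other genes. An exact permutation test of 1 gene over 2 and 2 libraries has 0.333 as its smallest two-sided p.

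Core subunits lay mostly below the median of all genes, whereas the cap was close to it. Relative to that median the core stood at -0.22 and the cap at 0.05. In 14 members both cko libraries were above both wt libraries, in 12 both were below, and in 20 the groups overlapped. Over all genes tested, 33.6% lay above and 18.0% below in this way, and 51.6% did not overlap. Of the 15 core subunits tested 1 lay above (6.67%) and 7 below (46.7%), whereas of the 17 cap subunits 10 lay above (58.8%) and 1 below (5.88%). Of the 5 activators 3 lay above and 0 below, and of the 8 inhibitor and assembly factors 0 lay above and 4 below. These counts depended on the scaling. When erythroid and hepatocyte genes were removed, 23 members lay above and 2 below, with 4 and 2 of the core and 13 and 0 of the cap, against 50.8% and 7.72% of all genes. With protein-coding genes alone it was 24 and 2, with 5 and 2 of the core and 13 and 0 of the cap, against 53.5% and 7.26% of all. With median-of-ratios scaling 9 lay above and 18 below, with 0 and 8 of the core and 7 and 4 of the cap, against 25.2% and 25.3% of all. The share of the cap above was higher than that of all genes, and that of the core lower, in each of these 3 settings. Single libraries also decided the counts. Without cko replicate 1 the core had 6 above and 7 below and the cap 14 and 1, against 47.3% and 30.2% of all genes. Without cko replicate 2 the core had 1 above and 14 below, and the cap 10 and 5, against 46.7% and 28.6% of all genes. The share of the cap below was then 29.4%, near that of all genes. Over all tested members the median log2 fold change was -0.02, with 18 above and 28 below the median of all genes.

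**Figure D2:**
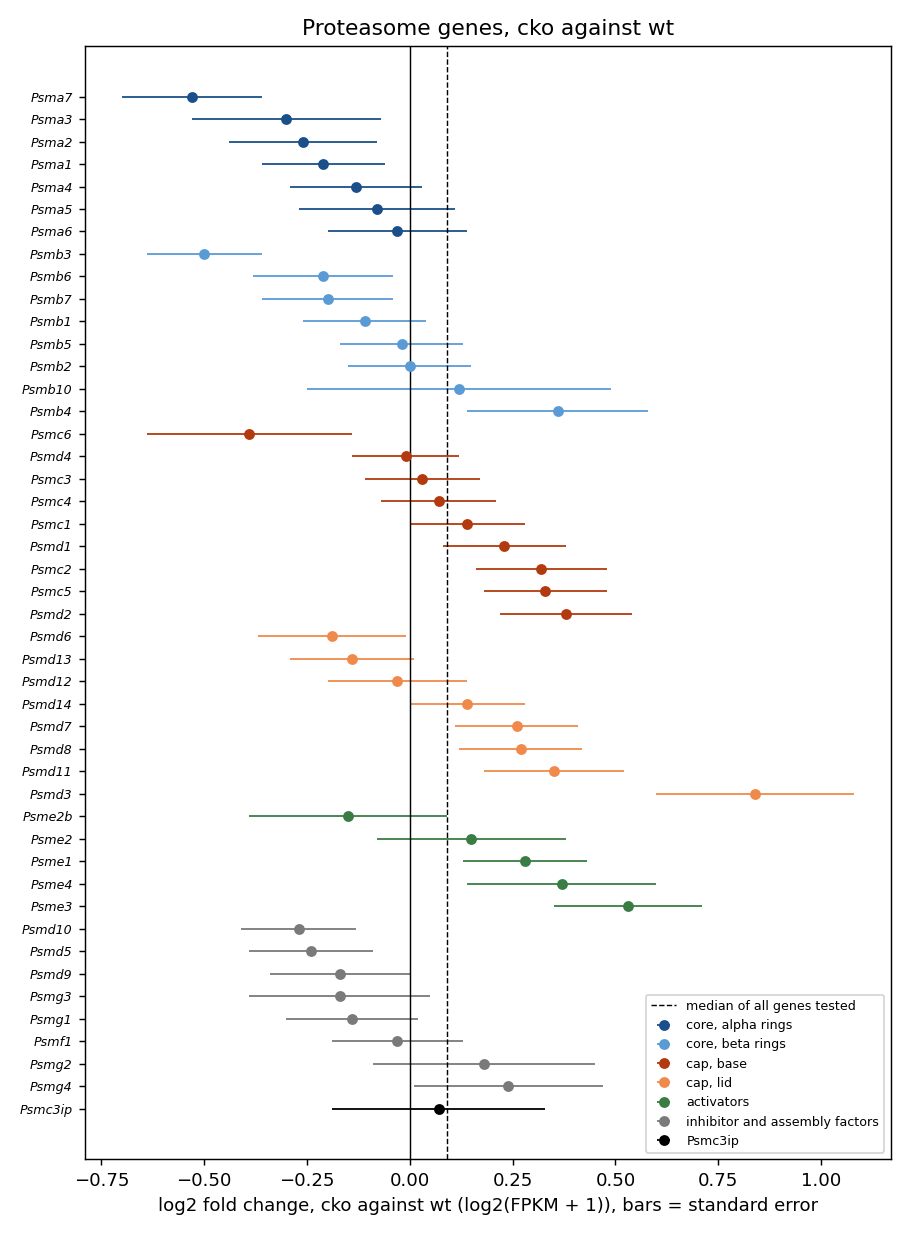
Log2 fold change of each tested member, cko against wt on log2(FPKM + 1), with its standard error as bars, coloured by class and ordered within it. The dashed line is the median of all genes tested, 0.09. Core subunits lie mostly to its left, with 13 of 15 below it, and 10 of the 17 cap subunits lie to its right.

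In the core, 12 of 15 subunits had a log2 fold change below 0 and 13 lay below the median of all genes. The median log2 fold change was -0.21 for the 7 alpha subunits, which ranged from -0.53 to -0.03, and -0.07 for the 8 beta subunits, which ranged from -0.50 to 0.36. Relative to the median of all genes these are -0.31 and -0.16. The core median stayed below that of all genes in each of the 17 alternatives run, by 0.15 to 0.42. Among them, the fit without a trend, the replicate block and the crossed replicate block change the error alone. By construction they leave every log2 fold change here and below as it is, so they say nothing about direction. Against 0, the median of the alpha subunits came to 0.02 and that of the beta subunits to 0.16 when protein-coding genes alone were kept.

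Psma7 (chr2:180036373-180042433, minus strand, in the deposited positions), an alpha ring subunit, was at 57.8 and 55.0 FPKM in wt and at 34.3 and 43.9 FPKM in cko. Both cko libraries lay below both wt libraries, with cko replicate 1 the lowest. The log2 fold change was -0.53 (standard error 0.17, limma adjusted p = 0.251), or -0.62 relative to all genes. Psmb3 (chr11:97703399-97713500, plus strand), a beta ring subunit without a cleavage site, was at 57.7 and 54.0 FPKM in wt and at 37.5 and 41.3 FPKM in cko. Here too the groups were apart, by more than either pair of replicates. Its log2 fold change was -0.50 (standard error 0.14, limma adjusted p = 0.228), or -0.59 relative to all genes. For Psmb3, 55.8% of the 50-base stretches of its transcripts also occur in other annotated genes, and how the authors counted such reads is not stated. Psma7 had none. Both genes stayed lower in cko in every alternative, but neither kept an unadjusted p under 0.05 when erythroid and hepatocyte genes were removed, when protein-coding genes alone were kept, with a replicate block, or without wt replicate 1 or wt replicate 2, and Psma7 did not without cko replicate 1. Under these settings the log2 fold change of Psma7 ranged from -0.56 to -0.30 and that of Psmb3 from -0.54 to -0.27.

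The other alpha subunits were lowest in cko replicate 1. Psma1, the highest of them, was at 115 and 112 FPKM in wt and at 90.3 and 106 FPKM in cko (log2 fold change -0.21), and Psma2 was at 39.8 and 31.3 FPKM in wt and at 27.7 and 31.1 FPKM in cko (-0.26). In both, the groups did not overlap, though cko replicate 2 came close to wt replicate 2. Psma3, the alpha subunit with the lowest level of those tested, was at 12.9 and 9.28 FPKM in wt and at 7.54 and 10.1 FPKM in cko (-0.30), and the groups overlapped. Psma4, Psma5 and Psma6 also overlapped, at log2 fold changes of -0.13, -0.08 and -0.03. Psma3, Psma4 and Psma5 share 22.0%, 25.6% and 54.5% of their 50-base stretches with other genes, most of them predicted genes with Gm names.

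Of the constitutive catalytic subunits, Psmb6, which cuts after acidic residues, was at 19.5 and 21.1 FPKM in wt and at 15.6 and 19.3 FPKM in cko. Psmb7, which cuts after basic residues, was at 30.2 and 27.7 FPKM in wt and at 22.8 and 27.5 FPKM in cko. Both lay lower in cko without overlap, at log2 fold changes of -0.21 and -0.20, but cko replicate 2 was within 1 FPKM of the lower wt library in each. Psmb5, which cuts after hydrophobic residues and is the main target of proteasome inhibitors, was at 26.6 and 26.3 FPKM in wt and at 24.3 and 28.1 FPKM in cko (-0.02), and shares 57.1% of its 50-base stretches with other genes. Its groups overlapped.

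Psmb10 (chr8:105935735-105938444, minus strand), which replaces Psmb7 in the immune variant of the core, was the least even member between the cko libraries. It was at 21.2 and 19.5 FPKM in wt, 14.6 FPKM in cko replicate 1 and 33.3 FPKM in cko replicate 2. The cko libraries thus lay on either side of wt, and the log2 fold change of 0.12 (standard error 0.37, limma adjusted p = 0.903) was -0.45 without cko replicate 2 and 0.68 without cko replicate 1. Its partner Psmb9 showed no such gap, at 18.2 and 19.5 FPKM in wt and 18.0 and 18.6 FPKM in cko. Psmb8 was at 1.05 and 1.51 FPKM in wt and 1.29 and 1.90 FPKM in cko. Its 33 and 46 reads in cko are too few to show whether it had such a gap. Psmb8 was thus much lower than Psmb9 and Psmb10 in all 4 libraries on the same per-length scale.

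Among the remaining beta subunits, Psmb2 had the highest level of all members, at 138 and 134 FPKM in wt and 124 and 149 FPKM in cko. Its groups overlapped and its log2 fold change was 0.00. Psmb4 was at 9.09 and 6.07 FPKM in wt and at 9.49 and 10.2 FPKM in cko, the single tested core subunit with both cko libraries above both wt libraries. Its log2 fold change of 0.36 (standard error 0.22, limma adjusted p = 0.447) was 0.62 without wt replicate 1 and 0.10 without wt replicate 2. Psmb1 was at 26.4 and 23.1 FPKM in wt and at 22.9 and 22.7 FPKM in cko (-0.11), below wt by less than the gap between the wt replicates.

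**Figure D3:**
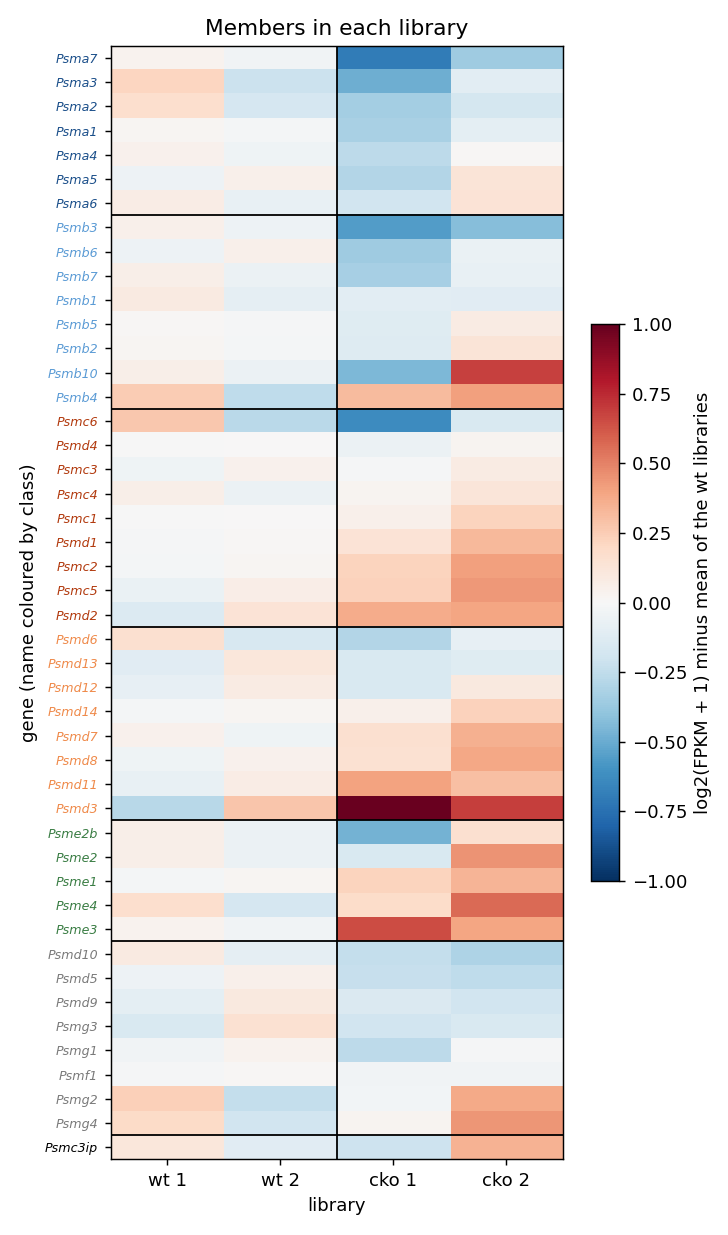
Each tested member in each library, as log2(FPKM + 1) minus the mean of the wt libraries, with red above and blue below that mean. Names are coloured by class, and black lines part the classes and groups. The core subunits are bluest in cko replicate 1, where their median deviation is -0.33 against -0.07 in cko replicate 2, and Psmb10 and Psme2 turn from blue in cko replicate 1 to red in cko replicate 2.

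In the cap, 10 of 17 subunits lay above the median of all genes and 7 below it. The median log2 fold change was 0.14 for the 9 subunits of the base, with a range of -0.39 to 0.38, and 0.20 for the 8 of the lid, with a range of -0.19 to 0.84. Relative to all genes these medians are 0.04 and 0.11, so the cap as a whole differed little from other genes. The median of the cap lay above that of all genes in 16 of the 17 alternatives, counting those that cannot move it. It came to -0.04 relative to that median without cko replicate 2.

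Psmd3 (chr11:98682554-98695979, plus strand), a scaffold subunit of the lid, differed most of all members. It was at 11.6 and 17.6 FPKM in wt and at 29.3 and 23.7 FPKM in cko, and both cko libraries lay above both wt libraries. The log2 fold change was 0.84 (standard error 0.24, limma adjusted p = 0.228), or 0.75 relative to all genes. It kept its direction in every alternative, from 0.55 without wt replicate 1 to 1.12 without wt replicate 2, but it was not under an unadjusted p of 0.05 without wt replicate 1 or without cko replicate 1 (log2 fold change 0.69). None of its 50-base stretches occurs in another gene.

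The other lid subunits spread on both sides. Psmd11 was at 4.99 and 5.66 FPKM in wt and at 7.37 and 6.77 FPKM in cko (log2 fold change 0.35), and Psmd8 was at 85.8 and 91.4 FPKM in wt and at 98.8 and 116 FPKM in cko (0.27). Psmd7, which pairs with the deubiquitinase Psmd14, was at 23.2 and 21.8 FPKM in wt and at 25.2 and 29.0 FPKM in cko (0.26). In these 3 genes both cko libraries lay above wt. Psmd14, which cleaves ubiquitin chains from the bound protein and is the highest member of the lid, was at 97.5 and 99.9 FPKM in wt and at 102 and 116 FPKM in cko (0.14), with cko replicate 1 above wt by about the gap between the wt replicates. Psmd13, at 76.8 and 90.0 FPKM in wt and 74.6 and 76.5 FPKM in cko (-0.14), was the single cap subunit with both cko libraries below wt. Psmd6 had the lowest log2 fold change of the lid, -0.19, at 17.2 and 13.6 FPKM in wt and 12.3 and 14.4 FPKM in cko, and its groups overlapped, as did those of Psmd12 at -0.03.

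In the base, Psmd2 (chr16:20651652-20663414, plus strand), a large scaffold on which ubiquitin-carrying shuttle factors dock, was at 49.6 and 60.4 FPKM in wt and at 71.2 and 72.2 FPKM in cko. The cko replicates were close to each other and above both wt libraries, at a log2 fold change of 0.38 (standard error 0.16, limma adjusted p = 0.307). Its 50-base stretches are shared with other genes to 26.4%. The related scaffold Psmd1 was at 15.1 and 15.4 FPKM in wt and at 16.9 and 19.3 FPKM in cko (0.23). The ubiquitin receptor Psmd4, the highest member of the base, showed almost equal values, at 115 and 116 FPKM in wt and 111 and 118 FPKM in cko (-0.01).

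The 6 ATPases of the base, which form 1 ring with 1 copy of each, did not lie together. Psmc5 was at 30.6 and 33.8 FPKM in wt and at 37.9 and 43.9 FPKM in cko (log2 fold change 0.33), and Psmc2, the lowest member of the base, was at 9.73 and 10 FPKM in wt and at 11.7 and 13.4 FPKM in cko (0.32). Psmc1 was at 85.0 and 85.4 FPKM in wt and at 88.3 and 99.4 FPKM in cko (0.14). These 3 had both cko libraries above wt, while Psmc3 (0.03) and Psmc4 (0.07) overlapped. Psmc6 lay on the other side with 91.1 and 62.2 FPKM in wt and 48.4 and 67.7 FPKM in cko. Its wt replicates were far apart and its groups overlapped, at a log2 fold change of -0.39 (standard error 0.25, limma adjusted p = 0.469). No 2 of these differences between ATPases were tested against each other.

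The cap and the core can be compared within each library, where a scaling factor cancels. Summed FPKM of the 17 core genes was 704.8 and 664.8 in wt and 555.7 and 681.3 in cko, and that of the 17 cap genes was 829.0 and 841.3 in wt and 850.5 and 941.7 in cko. The ratio of cap to core was thus 1.18 and 1.27 in wt and 1.53 and 1.38 in cko. Both cko libraries were above both wt libraries. The median log2 level of the cap minus that of the core was 0.07 and 0.30 in wt and 0.55 and 0.39 in cko. Here too both cko libraries were above both wt libraries, but cko replicate 2 exceeded wt replicate 2 by less than the gap between the wt replicates. The median deviation of the subunits from their wt mean, which is symmetric in wt by construction, had the cap minus the core at -0.07 and 0.07 in wt and at 0.38 and 0.30 in cko. What differed between the cko libraries was which class moved, since in cko replicate 1 the core lay at -0.33 and the cap at 0.05, and in cko replicate 2 the core lay at -0.07 and the cap at 0.23. Each group has 2 libraries and the classes were set by role with earlier results known, so no test of this ratio is given.

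**Figure D4:**
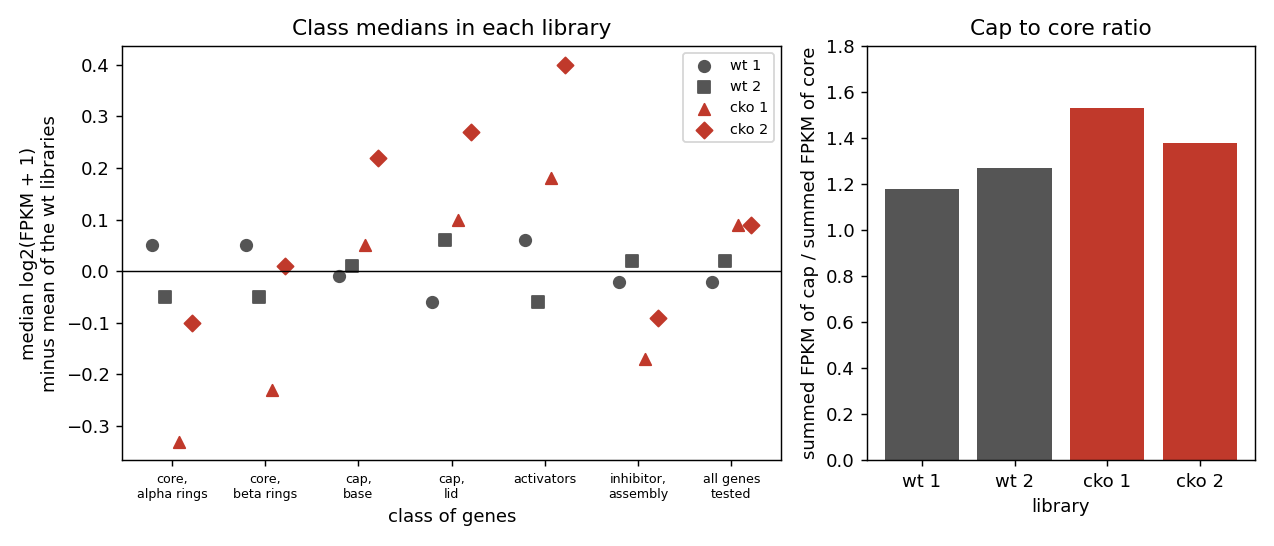
Left, the median over the tested genes of each class of log2(FPKM + 1) minus the mean of the wt libraries, in each library, with all genes tested at the right end. Grey marks are wt and red marks cko. Right, the summed FPKM of the cap genes divided by that of the core genes in each library, 1.18 and 1.27 in wt and 1.53 and 1.38 in cko.

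Transcript length moved with the difference between cap and core. The longest protein-coding transcript had a median of 1165 bases for the core subunits tested, 1819 bases for the cap and 2648 bases for all genes. Over all tested protein-coding genes, the median log2 fold change was -0.09 for 575 genes under 1000 bases, -0.02 for 909 genes of 1000 to 1500 bases, 0.05 for 2132 genes of 1500 to 2500 bases, 0.08 for 2730 genes of 2500 to 4000 bases and 0.14 for 2805 longer genes. In the middle length range of the core, 970.5 to 1275 bases, the median was -0.04 over 501 genes, against -0.13 for the core itself. In that of the cap, 1581 to 2148 bases, it was 0.04 over 1274 genes, against 0.14 for the cap. With the trends on length and GC content removed in each library, an alternative chosen after the data were seen, the core median was -0.18 and the cap median 0.13, against 0.01 for all genes.

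**Figure D5:**
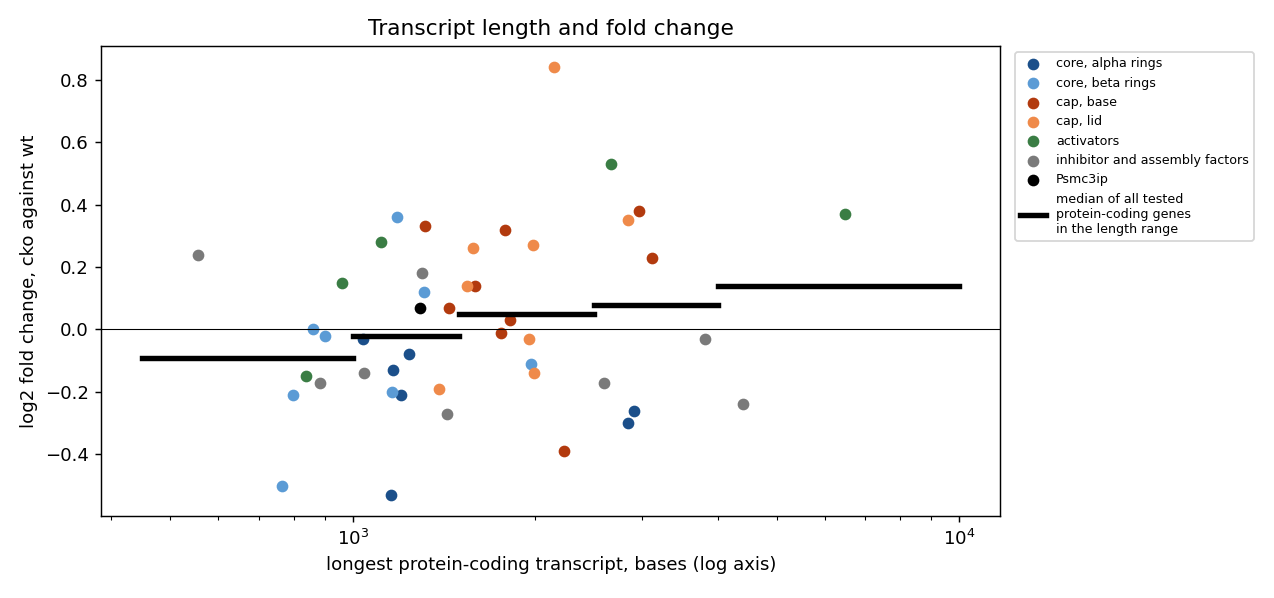
Log2 fold change, cko against wt, of each tested member by the length of its longest protein-coding transcript (log axis), coloured by class. Black bars are the medians of all tested protein-coding genes in 5 length ranges, which go from -0.09 under 1000 bases to 0.14 above 4000 bases. The beta subunits of the core lie mostly at the short end and the cap subunits in the middle.

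The activators lay above the median of all genes in 4 of 5 cases, with a median log2 fold change of 0.28, or 0.19 relative to all genes. Psme3 (chr11:101316213-101323537, plus strand), the nuclear activator PA28 gamma, was at 6.27 and 5.95 FPKM in wt and at 10.2 and 8.36 FPKM in cko. The wt replicates were close and both cko libraries lay above them, at a log2 fold change of 0.53 (standard error 0.18, limma adjusted p = 0.254). It did not keep an unadjusted p under 0.05 with a replicate block (log2 fold change 0.53), median-of-ratios scaling (0.43), quantile normalization (0.41), without wt replicate 1 (0.56), without wt replicate 2 (0.50) or without cko replicate 1 (0.40). Psme4, the large nuclear activator PA200, was at 4.97 and 3.71 FPKM in wt and at 5.02 and 6.84 FPKM in cko (0.37). Here cko replicate 1 exceeded wt replicate 1 by less than the gap between the wt replicates.

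Psme1 and Psme2 encode the alpha and beta chains of PA28, the interferon-inducible activator linked to antigen processing, and lie 5912 bases apart on chromosome 14. Psme1 was at 11.6 and 11.9 FPKM in wt and at 13.9 and 15.1 FPKM in cko (log2 fold change 0.28). Its groups did not overlap. Psme2 was at 33.9 and 31.1 FPKM in wt and at 29.1 and 44.6 FPKM in cko (0.15), and its copy Psme2b at 35.9 and 32.9 FPKM in wt and at 24.5 and 38.6 FPKM in cko (-0.15). These genes share 59.3% of the 50-base stretches of Psme2 and cannot be told apart in reads from there. How such reads were counted is not stated, so their sum is also given. It was 69.8 and 64.0 FPKM in wt and 53.5 and 83.2 FPKM in cko, with the cko libraries on either side of wt and a log2 fold change of -0.00. As with Psmb10, cko replicate 2 was the higher.

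The inhibitor and assembly factors had a median log2 fold change of -0.16, or -0.25 relative to all genes, and 6 of 8 lay below the median of all genes. The chaperones that build the base were on 1 side. Psmd10, known as gankyrin, was at 60.9 and 53.5 FPKM in wt and at 48.3 and 45.9 FPKM in cko (-0.27), and Psmd5 was at 14.6 and 15.8 FPKM in wt and at 12.8 and 12.6 FPKM in cko (-0.24). Psmd9 was at 7.72 and 9.02 FPKM in wt and at 7.46 and 7.19 FPKM in cko (-0.17), and 25.5% of its exonic bases overlap another gene. In each of the 3 both cko libraries lay below wt, with limma adjusted p of 0.401, 0.449 and 0.64. The separation depended on the scaling. With erythroid and hepatocyte genes removed, 2 of the class lay above and 0 below, against 50.8% and 7.72% of all genes. Psmd10, Psmd5 and Psmd9 were then at -0.06, -0.04 and 0.02, or -0.33, -0.31 and -0.25 relative to all genes. With median-of-ratios scaling 0 of the class lay above and 6 below, against 25.2% and 25.3% of all genes.

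The chaperones of the core were less even. Psmg1 was at 22.0 and 23.1 FPKM in wt and at 18.6 and 22.3 FPKM in cko (log2 fold change -0.14), and its partner Psmg2 at 3.06 and 1.91 FPKM in wt and at 2.37 and 3.47 FPKM in cko (0.18). Psmg3 was at 2.16 and 2.92 FPKM in wt and at 2.08 and 2.17 FPKM in cko (-0.17), and its partner Psmg4 at 9.09 and 6.70 FPKM in wt and at 7.98 and 11.0 FPKM in cko (0.24). The groups overlapped in all 4 genes, and the log2 fold change of Psmg2 was -0.07 without wt replicate 2 and -0.03 without cko replicate 2. Psmf1, the inhibitor PI31, was nearly constant at 5.90 and 6.03 FPKM in wt and 5.79 and 5.81 FPKM in cko (-0.03). Despite this small shift it is among the 4 of its class counted with both cko libraries below wt. Psmc3ip was at 2.80 and 2.25 FPKM in wt and at 2.05 and 3.48 FPKM in cko (0.07).

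The promoters of the members were searched for 4 motifs on both strands in the RefSeq sequences (GRCm38.p6) from 250 bases before to 50 bases after each start, which matched 40 of the 48 members. Each motif was counted without regard to overlap with another. The core of ETS factor sites, CCGGAA, was in 21 of 40 members (52.5%), against 26.7% of 12224 protein-coding genes and 34.8% of the 7222 of them that were tested. It was in 10 of 14 cap promoters (71.4%) and in 4 of 13 core promoters (30.8%). The members held 34 such sites in 21 genes, and a single site is printed per gene shown. Genes were picked by how they moved, so other carriers, such as Psmc6, Psmd4, Psma2 and Psmb4, are left out. The windows shown here are those of cap and activator genes with both cko libraries above wt. They are followed by the windows of Psmd13, the cap gene with both below, and Psma6 of the core, which overlapped. Each holds 29 bases read 5′ to 3′ so that the motif, in capitals, reads as spelled.
Psmc1 (chr12:100110164-100110192, minus strand): aaatcgccaccgCCGGAAgtgcatccacc
Psmc2 (chr5:21786713-21786741, minus strand): ttctcttccccaCCGGAAgtagctccgcg
Psmc5 (chr11:106256079-106256107, plus strand): cgcccattgacCCGGAActgttctcggtg
Psmd2 (chr16:20651616-20651644, minus strand): ttgtcctccagaCCGGAAgcgccctgcgg
Psmd11 (chr11:80428594-80428622, minus strand): ggaaacacacacCCGGAAgacccgccctc
Psme3 (chr11:101316095-101316123, plus strand): gggcacaaggcCCGGAAgctccgacagcc
Psme4 (chr11:30771711-30771739, plus strand): gtggccccgccCCGGAAgtgacttgaggc
Psmd13 (chr7:140882377-140882405, plus strand): cgcccgcggtgCCGGAAgtgagcgagcac
Psma6 (chr12:55398761-55398789, plus strand): tcccgtccccaCCGGAAacaccgccagtc

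Cap genes with both cko libraries above wt were found both with and without the motif. Psmc3, Psmd3 and Psmd7 of the cap had no promoter sequence. The split therefore leaves out Psmd3, the member that differed most, and Psmd7, both with the cko libraries above wt. Of the 10 cap genes with it, 5 had both cko libraries above wt, 1 below and 4 overlapped, and of the 4 without it 3 lay above and 1 overlapped. The core of the antioxidant response element, TGACNNNGC, which Nfe2l1 and related factors bind when proteasome genes are induced, was in 6 of 40 members (15.0%), against 16.4% of all protein-coding genes. It was in 2 catalytic subunits, Psmb5 and Psmb6, whose windows are printed as those of the catalytic subunits. The other carriers were Psmc6, Psmd12, Psmd9 and Psme4, and Psmb7 had no promoter sequence. Both cko libraries lay above wt in Psme4 and below wt in Psmb6 and Psmd9. The groups overlapped in Psmb5, Psmc6 and Psmd12. Nfe2l1 itself was at 11.3 and 10.9 FPKM in wt and at 13.3 and 12.6 FPKM in cko (log2 fold change 0.21, limma adjusted p = 0.515). CCAAT was in 7 of 13 core promoters (53.8%) and 4 of 14 cap promoters (28.6%), against 42.1% of all. The core of the interferon-stimulated response element, a sequence found at interferon-induced genes, was in 5 of 40 members (12.5%), against 3.95% of all. These were Psmb3, Psmd4, Psmd9, Psme1 and Psmg4, whereas Psmb10, Psme2 and Psme2b did not hold it.
Psmb5 (chr14:54618024-54618052, minus strand): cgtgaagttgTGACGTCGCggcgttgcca
Psmb6 (chr11:70525338-70525366, plus strand): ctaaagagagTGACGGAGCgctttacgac

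Of a list of 33 further genes of the pathway, covering shuttle factors, deubiquitinases, assembly factors, regulators and ubiquitin genes, 29 were found and 27 tested. The median log2 fold change was 0.21, or 0.11 relative to all genes, and at an unadjusted p under 0.05 there were 4 higher and 0 lower of 27, against 11.4% and 4.95% of all genes tested. Over the alternatives the number higher ran from 1 to 11. Ddi2, the protease that activates Nfe2l1, was at 2.10 and 3.18 FPKM in wt and at 6.61 and 7.61 FPKM in cko (1.17, limma adjusted p = 0.199). Zfand5, a proteasome-binding protein that promotes degradation, was at 4.64 and 5.88 FPKM in wt and at 9.76 and 14.5 FPKM in cko (1.05, limma adjusted p = 0.21). The shuttle factor Ubqln1 (0.56) and AI314180, the mouse form of the adaptor Ecm29 (0.49), were the others. Ubqln1 and AI314180 did not keep an unadjusted p under 0.05 with median-of-ratios scaling, quantile normalization, a replicate block, length and GC trends removed or most libraries left out in turn, nor did Ubqln1 with a minimum of 5 FPKM and AI314180 with no filter or a crossed replicate block. In all 4 both cko libraries lay above wt, as in 13 of the 27 (48.1%, against 33.6% of all genes tested), while in the ubiquitin gene Ubb both lay below, at 3300 and 3660 FPKM in wt and 2810 and 2730 FPKM in cko (-0.33). The core assembly factor Pomp (0.01) overlapped, and Adrm1, a ubiquitin receptor of the cap that carries no Psm name, was at 29.6 and 34.3 FPKM in wt and at 37.6 and 35.2 FPKM in cko (0.19).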

How the data were processed

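The authors deposited FPKM per gene, 1 file per library, made per the submitters' processing notes with TopHat2 2.0.12, Bowtie2 2.2.3 and HTSeq 0.6.0 on mm9, although 92.61% of the gene positions equal GENCODE M21 (GRCm38). Strand and multi-mapping settings are not given in the sources used here. Library totals were recovered from single-exon genes, whose FPKM were whole multiples of 1 read (99.97% to 100% within 0.02 reads). Groups followed the labels. Genes at a mean FPKM of 1 or more were fitted as log2(FPKM + 1) with limma 3.58.1 (lmFit, eBayes with trend) in R 4.3.3, without covariates. The Benjamini-Hochberg adjustment ran over all genes tested. The fit was also run on simulated reads, but the changes planted there were larger than that of any member. That run therefore does not show how well changes of the size seen here are found.

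Members, roles and lists were chosen with earlier results of these data known. Named were the catalytic subunits, the highest and lowest of each class by level and by change, activators, inhibitor and assembly factors, and genes under 1 FPKM. The remaining members were named after their values were seen. Alternatives were pseudocounts, filters, scalings, removal of erythroid and hepatocyte genes, protein-coding genes only, no trend, a replicate block, voom on reads, leaving out each library and, added later, length and GC trends and a crossed block. Python 3.11.15 and matplotlib 3.10.9 were used. The values of 1 gene of the pathway list are not reported here.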

Additional observations from a re-analysis of the deposited data

How the results depend on the processing

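Among 725 values of 43 single genes under the 17 alternatives, 612 kept their sign and their side of an unadjusted p of 0.05, 43 lost that p and 24 gained it. Another 46 turned sign, 24 of them by more than the standard error, none in a gene with an unadjusted p under 0.05 in either fit. In the fit without a trend and with either replicate block the sign could not turn, since they leave the log2 fold change as it is. The genes past the threshold of the whole table went from 0 to 1 with protein-coding genes only, 2 with voom on reads and 1 with a crossed replicate block.

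With erythroid and hepatocyte genes removed, the median log2 fold change was -0.00 for alpha and 0.14 for beta subunits, 0.35 for the base, 0.41 for the lid, 0.48 for activators, 0.04 for inhibitor and assembly factors, 0.19 for all members and 0.40 for the pathway list. With protein-coding genes only these were 0.02, 0.16, 0.37, 0.43, 0.50, 0.06, 0.21 and 0.42. With median-of-ratios scaling the base was at 0.03, the lid at 0.09, inhibitor and assembly factors at -0.25 and the pathway list at 0.11, and with quantile normalization at 0.02, 0.09, -0.25 and 0.10, with the alpha subunits at -0.34. These shifts follow the median of all genes, which the scalings move by construction. Removal of length and GC trends, chosen after seeing the data, gave 0.14 for the pathway list.

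Members with both cko libraries above wt numbered 23 and 24, and those below 2 and 2, with erythroid and hepatocyte genes removed and with protein-coding genes only, and 9 lay above and 18 below with median-of-ratios scaling. Of all genes tested, 50.8% lay above and 7.72% below with erythroid and hepatocyte genes removed. The shares were 53.5% and 7.26% with protein-coding genes only, and 25.2% and 25.3% with median-of-ratios scaling. Members at an unadjusted p under 0.05 were 12 higher and 0 lower in the first 2 of these, and 1 higher with median-of-ratios or quantile scaling. In the pathway list 8 were higher with erythroid and hepatocyte genes removed, 11 with protein-coding genes only, 1 with a minimum of 5 FPKM, and 2 with median-of-ratios, quantile or length and GC correction. With these last 3, and with voom, 1 was lower. The share of all genes called at this p is given for the main fit alone, so these counts have no such share beside them.

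The replicate numbers did not pair the libraries (correlation of deviations -0.16). With the replicate block, 1 member was higher and 0 lower at an unadjusted p under 0.05, and 2 of the pathway list were higher. A crossed replicate block gave 3 higher and 3 lower members.

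Leaving out each library in turn, the medians ranged from -0.33 to -0.09 for alpha subunits, -0.23 to 0.01 for beta subunits, 0.05 to 0.22 for the base, 0.10 to 0.27 for the lid, 0.18 to 0.40 for activators, -0.18 to -0.07 for inhibitor and assembly factors, -0.14 to 0.13 for all members and 0.11 to 0.24 for the pathway list. Members above wt ranged from 14 to 28 (28 without cko replicate 1) and below from 12 to 28 (28 without cko replicate 2). Of all genes tested, 47.3% lay above without cko replicate 1 and 28.6% below without cko replicate 2. At an unadjusted p under 0.05, 1 to 2 members were higher, 0 to 3 lower, and 2 to 4 of the pathway list higher. The lone library is then assumed to vary like the other group.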
